A study of Mus musculus with 12 samples.

Results

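Mouse liver RNA was examined for 44 genes whose products carry out translocation, folding and glycosylation of proteins in the endoplasmic reticulum (ER). The 44 genes were listed by name, were matched to Ensembl identifiers through the GENCODE M21 annotation, and were all found among the 53465 genes of the count table. They fell into 6 roles, namely 9 ER chaperones and their cofactors, 6 lectin chaperones and disulfide isomerases, 9 subunits of the translocon and of the TRAP complex beside it, 7 subunits of oligosaccharyltransferase, 5 subunits of signal peptidase, and 8 genes of ER-associated degradation counted together with Xbp1. Livers came from C57BL/6N mice in 3 groups, called young at 3 months, middle-aged at 12 months and aged at 18 months, with 4 animals at each age and 1 animal per library. No genotype or treatment was given for any group, and the methods describe the animals as male. The design text of the series gives 3 replicates per age, whereas 4 libraries were labelled for each. The description of the RNA extraction names young and old livers only, so how the middle-aged livers were handled is uncertain.

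A protein bound for secretion is threaded into the ER through the Sec61 channel while it is still being made. Signal peptidase removes its leading peptide, oligosaccharyltransferase attaches sugar chains to it, chaperones and disulfide isomerases fold it, and chains that fail to fold are sent back to the cytosol and degraded. Hepatocytes use this route for albumin and most other plasma proteins. When unfolded chains build up, sensors in the ER membrane raise transcription of many of these genes through Xbp1 and Atf6, a programme known as the unfolded protein response.

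Counts assigned to genes ranged from 8124312 to 10527159 per library, so that 3 counts corresponded to 0.285 to 0.369 CPM, that is, counts scaled to a common library total. Young replicate 3 and middle-aged replicate 1 held counts for 22284 and 19982 genes, against 16361 to 17563 in the other 10 libraries, and mitochondrially encoded genes took 19.16% of gene counts in young replicate 2. Replicates 1 and 2 of every age carried synthetic spike-in RNAs in other proportions than replicates 3 and 4. Of 41 spike-ins with at least 10 counts in every library, 29 did not overlap between these sets of 6 libraries. Spike-ins took 3.5% to 10.63% of all counts in young, 1.59% to 2.73% in middle-aged and 1.87% to 3.51% in aged livers, so that every middle-aged library lay below every young one. Their part in the results was not tested. Young replicates 2 and 3 and middle-aged replicate 1 are called the 3 libraries that stood apart below, where the tests are also given without them. All 8 hepatocyte markers had counts, and their summed level was between 70079 and 110749 CPM in the 12 libraries. In bulk liver, fewer cells of a type and less RNA per cell cannot be told apart.

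The promoters of the list are shown first, because letters known from the unfolded protein response are found in some of them and their genes are followed below. The ER stress response element (ERSE) was searched as CCAAT, then 9 bases, then CCACG, and its second form (ERSE-II) as ATTGG, then 1 base, then CCACG. Both strands were read, in windows from 250 bases before to 50 bases after the annotated start of RefSeq (GRCm38.p6). Windows existed for 36 of the 44 members. ERSE occurred in 9 of them (25%), against 0.137% of 27025 genes with a window, and ERSE-II in 2 (5.56%), against 0.0444%. The 9 were the windows of Hspa5, Hsp90b1, Dnajc3, Creld2, Calr, Canx, Pdia6, Derl3 and Syvn1, and the 2 were those of Dnajb11 and Herpud1. Since the list holds many genes that this response is known to raise, higher shares than over all genes were likely beforehand. The third known element, TGACGTGG, occurred in no member window and in 0.714% of all genes. No match of one kind overlapped a match of another in a member window. The members without a window were Derl1, Hyou1, Manf, Ostc, Sec11c, Sec61a1, Spcs3 and Ssr2.

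Windows of 4 genes with wide differences between livers and of Ssr4, which held neither letter pattern, read as follows, with the match in capitals. Hspa5 lies at chr2:34771840-34772139, Creld2 at chr15:88819396-88819695, Syvn1 at chr19:6046326-6046625, Herpud1 at chr8:94386179-94386478 and Ssr4 at chrX:73786773-73787072, all on the plus strand of GRCm38.p6. These 5 were chosen after their values were seen.
Hspa5: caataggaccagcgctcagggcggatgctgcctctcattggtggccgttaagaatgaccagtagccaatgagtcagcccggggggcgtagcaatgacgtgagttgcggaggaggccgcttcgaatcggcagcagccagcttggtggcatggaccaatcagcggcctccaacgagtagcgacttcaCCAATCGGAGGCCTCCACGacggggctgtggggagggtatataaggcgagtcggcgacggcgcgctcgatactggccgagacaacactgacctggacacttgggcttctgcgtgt
Creld2: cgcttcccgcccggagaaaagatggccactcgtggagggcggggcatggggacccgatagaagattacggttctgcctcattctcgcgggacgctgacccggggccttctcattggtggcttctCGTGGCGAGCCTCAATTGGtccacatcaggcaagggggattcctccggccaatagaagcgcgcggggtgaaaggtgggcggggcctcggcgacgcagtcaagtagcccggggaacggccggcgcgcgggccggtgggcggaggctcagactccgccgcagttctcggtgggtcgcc
Syvn1: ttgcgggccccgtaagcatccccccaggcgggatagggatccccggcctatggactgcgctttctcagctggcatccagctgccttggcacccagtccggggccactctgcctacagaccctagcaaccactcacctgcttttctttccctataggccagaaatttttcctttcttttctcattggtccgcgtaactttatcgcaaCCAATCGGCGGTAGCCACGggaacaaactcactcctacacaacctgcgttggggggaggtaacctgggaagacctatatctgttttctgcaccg
Herpud1: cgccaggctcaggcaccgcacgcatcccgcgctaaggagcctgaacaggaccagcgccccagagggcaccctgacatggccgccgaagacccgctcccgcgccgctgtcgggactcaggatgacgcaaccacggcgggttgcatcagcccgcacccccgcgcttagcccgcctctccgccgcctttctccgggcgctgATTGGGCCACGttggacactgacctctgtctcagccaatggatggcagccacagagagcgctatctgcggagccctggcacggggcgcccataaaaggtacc
Ssr4: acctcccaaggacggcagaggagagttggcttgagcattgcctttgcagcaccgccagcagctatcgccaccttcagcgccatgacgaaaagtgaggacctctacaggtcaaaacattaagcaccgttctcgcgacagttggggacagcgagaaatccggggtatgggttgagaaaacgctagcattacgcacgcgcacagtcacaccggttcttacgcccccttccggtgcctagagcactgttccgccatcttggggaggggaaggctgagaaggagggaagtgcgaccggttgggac
The ERSE of Hspa5 lay 65 to 47 bases before the start and that of Syvn1 44 to 26 bases before it. In Creld2 the match was on the minus strand, so that the printed strand carries its reverse complement, 126 to 108 bases before the start. The ERSE-II of Herpud1 lay 52 to 42 bases before the start.

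Levels of the members spanned a wide range. Per kilobase of exonic length and averaged over the 12 livers, P4hb, a protein disulfide isomerase, was highest at 4217 normalised counts. Calr, the lectin chaperone calreticulin, followed at 2449 and Hspa5, the Hsp70 chaperone of the ER known as BiP, at 2261. At the other end stood Derl3 at 5.50, Sec61g at 15.7 and Sec11c at 35.0 normalised counts per kilobase. Derl3, a channel component of ER-associated degradation, had between 1.8 and 27.9 normalised counts in single livers, too few for its differences to be read closely.

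Over the whole list, middle-aged livers were low and young livers high, while aged livers were split. In young livers 1 to 4, 34, 28, 44 and 36 of the 44 members lay above their own median over the 12 livers. The corresponding numbers were 20, 4, 7 and 3 in middle-aged livers and 31, 38, 12 and 7 in aged livers. Aged replicates 1 and 2 thus resembled the young livers in this count and aged replicates 3 and 4 the middle-aged ones. The single highest count, 44 of 44, was that of young replicate 3, the library with the most genes detected.

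**Figure D1:**
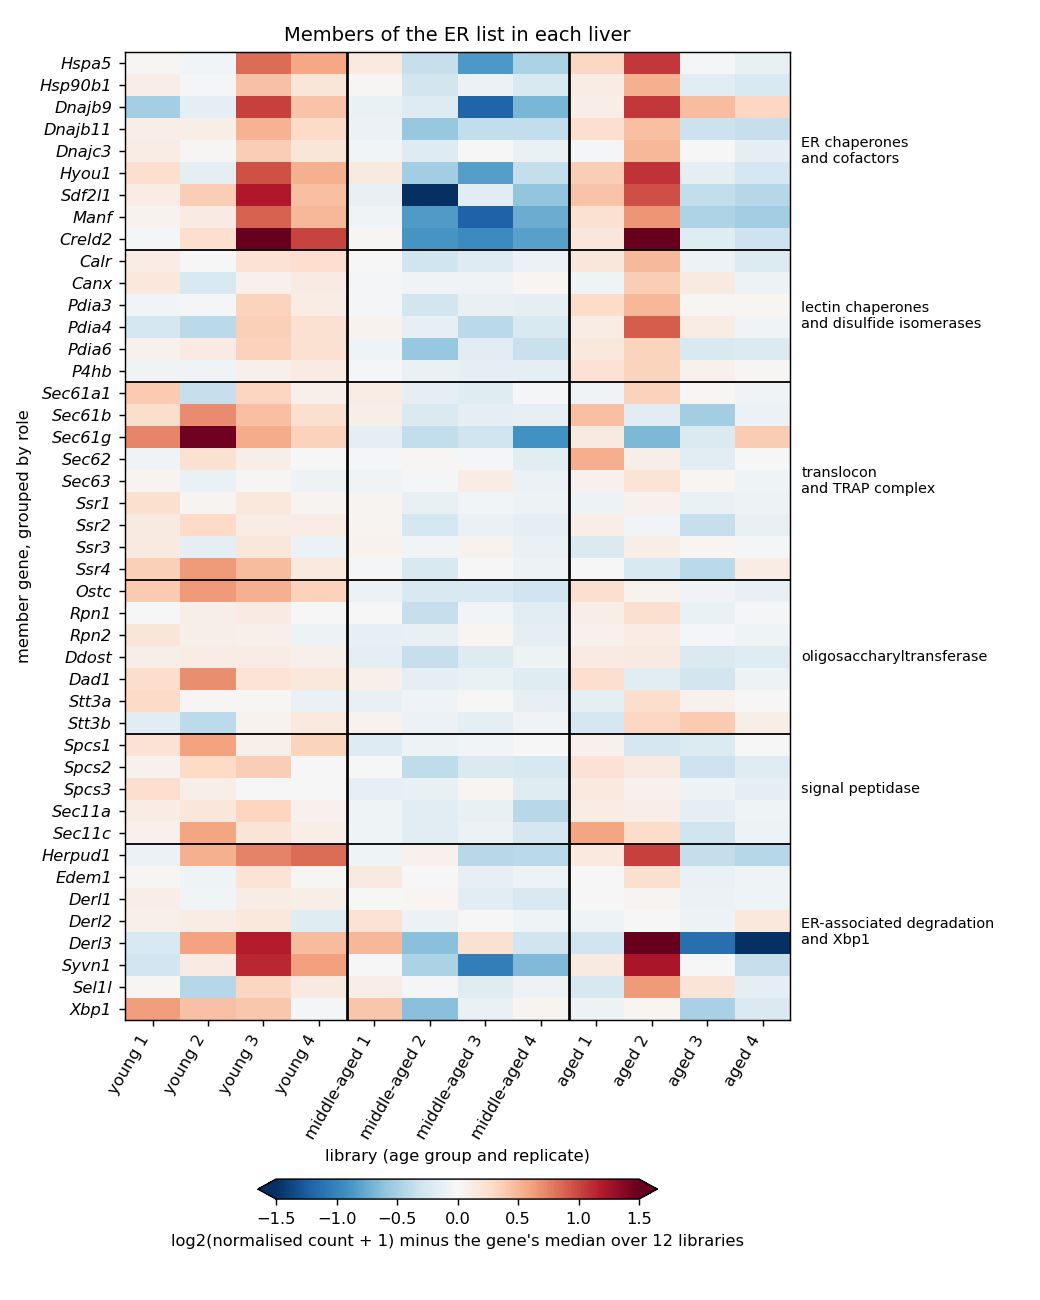
Heat map of the 44 members (rows, grouped by role) in the 12 livers (columns, by age group and replicate), coloured by log2(normalised count + 1) minus the gene's median over the 12 livers, with the colour scale ending at 1.5 in either direction. Young replicates 3 and 4 and aged replicate 2 are red over the chaperones, middle-aged replicates 2 to 4 are blue, and the translocon, oligosaccharyltransferase and signal peptidase rows vary less.

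Middle-aged and young livers were compared to ask how transcript levels differ by 12 months. DESeq2 called 9 of the 43 members tested, which is 20.9% against 6.41% of all 11333 genes tested, at a Benjamini-Hochberg adjusted p under 0.05. All 9 fell, and 2.90% of all genes tested were called lower. The members that fell were Dnajb11, Manf, Pdia6, Sec61g, Ssr4, Ostc, Dad1, Spcs1 and Sec11a, which spread over 5 of the 6 roles. The log2 fold change was below 0 for 42 of the 44 members, with a median of -0.31 over the members and 0.0065 over all genes tested. In 16 members every middle-aged liver was below every young liver, and the same held for 7.96% of all genes tested.

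Aged and young livers were compared to ask the same of 18 months. Here 3 of 44 members were called, which is 6.82% against 3.58% of all 13527 genes tested. Ssr4, Ostc and Spcs1 fell, and 1.71% of all genes tested were called lower. Their levels were below those of every young liver in all aged livers, as were those of Ssr2, against 3.69% of all genes tested. The members' median log2 fold change was -0.09, beside -0.0003 over all genes tested. In the likelihood ratio test over 3 ages, Sec61g, Ssr4, Ostc and Spcs1 passed, 4 of 44 members against 6.96% of all genes tested. Both comparisons share the young livers, so their values are not independent.

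**Figure D2:**
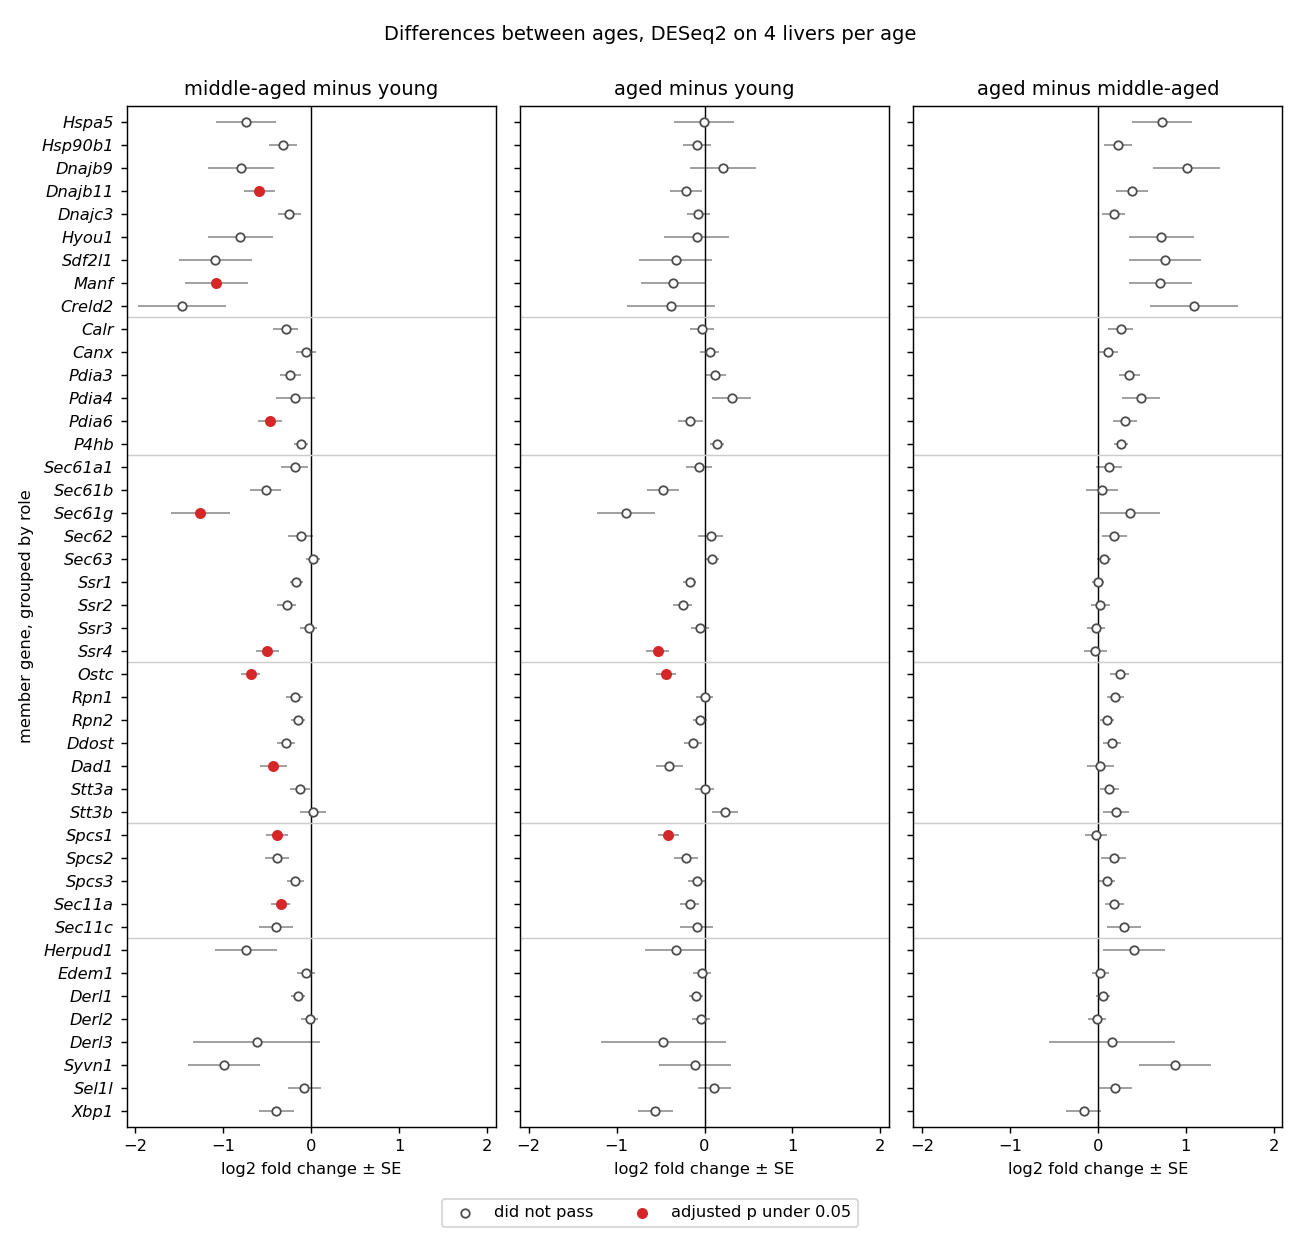
Log2 fold change with its standard error (horizontal axis) for each of the 44 members (vertical axis, grouped by role) in the 3 comparisons of ages, with filled red points for a DESeq2 adjusted p under 0.05. In middle-aged against young livers 42 points lie left of 0 and 9 are red, in aged against young livers 3 are red, and in aged against middle-aged livers none is.

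Among the ER chaperones, all 9 were lower on average in middle-aged than in young livers, with a median log2 fold change of -0.80, and 2 passed the test. Dnajb11 (ENSMUSG00000004460, chr16:22857845-22879634), a J-domain cochaperone of BiP, had 981.9, 973.0, 1310 and 1114 normalised counts in young livers, 861.8, 618.6, 710.8 and 710.6 in middle-aged livers, and 1087, 1254, 732.3 and 719.6 in aged livers. Every middle-aged liver was below every young liver, and the aged livers fell into a high and a low pair. The log2 fold change of middle-aged against young livers was -0.59 (SE 0.18, DESeq2 adjusted p = 0.0283). Manf (ENSMUSG00000032575, chr9:106838312-106891979), a secreted protein that binds BiP, had 1465, 1544, 2614 and 2001 normalised counts in young livers, 1372, 786.5, 611.9 and 846.9 in middle-aged livers, and 1667, 2237, 1028 and 988.7 in aged livers. The highest middle-aged liver lay just under the lowest young one, and the aged livers again split into the same pairs. The log2 fold change of Manf was -1.08 (SE 0.36, DESeq2 adjusted p = 0.0435), and its gene body overlaps those of Dcaf1 and Rbm15b.

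The other 7 chaperones did not pass, although unadjusted p-values were under 0.05 for 8 of the 9. Hspa5 had 8526, 8169, 14992 and 12558 normalised counts in young livers, 9260, 6607, 4609 and 6021 in middle-aged livers, and 10449, 17489, 8275 and 7778 in aged livers. The groups overlapped, and livers of one age differed up to 2.25-fold. Its log2 fold change was -0.74 (SE 0.34, adjusted p = 0.179) for middle-aged and -0.01 (SE 0.34, adjusted p = 0.996) for aged against young livers. Creld2, which acts on disulfide bonds in the ER, had 337.5, 410.1, 1060 and 696.1 normalised counts in young livers, 348.5, 184.9, 175.7 and 194.4 in middle-aged livers, and 384.4, 967.1, 302.4 and 275.3 in aged livers. Within the young and within the aged group the highest liver exceeded the lowest 3.14-fold and 3.51-fold. The log2 fold change of Creld2 for middle-aged against young livers, -1.47 (SE 0.50), was larger in size than that of any other member but had an adjusted p of 0.051. Hsp90b1 (the ER form of Hsp90), the cochaperones Dnajb9 and Dnajc3, and the BiP partners Hyou1 and Sdf2l1 had log2 fold changes between -0.25 and -1.09.

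Of the lectin chaperones and disulfide isomerases, 1 of 6 passed in middle-aged against young livers. Pdia6 (ENSMUSG00000020571, chr12:17266545-17284770), a disulfide isomerase that works with BiP, had 3104, 3226, 3771 and 3459 normalised counts in young livers, 2827, 1996, 2625 and 2354 in middle-aged livers, and 3302, 3733, 2519 and 2574 in aged livers. Young and middle-aged livers did not overlap, and aged replicates 1 and 2 lay within the young range. It fell by 0.47 on the log2 scale (SE 0.14, DESeq2 adjusted p = 0.0267). P4hb and Canx, the membrane-bound lectin chaperone calnexin, differed least here, with log2 fold changes of -0.12 and -0.06 and adjusted p of 0.399 and 0.812.

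In the translocon and the TRAP complex, Sec61g and Ssr4 passed out of 9. Sec61g (ENSMUSG00000078974, chr11:16500530-16508484), the small gamma subunit of the Sec61 channel, had 55.2, 91.7, 48.6 and 42.0 normalised counts in young livers, 29.8, 25.1, 26.5 and 17.0 in middle-aged livers, and 36.1, 20.2, 28.0 and 42.9 in aged livers. The lowest young liver lay above all middle-aged livers and below the highest aged one. The log2 fold change was -1.26 for middle-aged (SE 0.33, DESeq2 adjusted p = 0.00647) and -0.89 for aged against young livers (SE 0.33, adjusted p = 0.103). A stretch of 420 bases of Sec61g is identical to the processed pseudogene Gm10177, so these low counts depend on how the counting treated shared reads and are uncertain.

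Ssr4 (ENSMUSG00000002014, chrX:73787028-73790830), the delta subunit of the TRAP complex that assists translocation at Sec61, had 951.1, 1153, 1027 and 820.1 normalised counts in young livers, 726.8, 632.1, 737.3 and 702.6 in middle-aged livers, and 744.7, 631.9, 560.2 and 803.6 in aged livers. All 8 older livers lay below the lowest young one. The log2 fold changes were -0.50 at 12 months (SE 0.13, DESeq2 adjusted p = 0.00795) and -0.53 at 18 months (SE 0.13, adjusted p = 0.0056). The other TRAP subunits had smaller differences at 18 months, with -0.25 for Ssr2, -0.17 for Ssr1 and -0.05 for Ssr3, none past the threshold. Sec61b (chr4:47474658-47483242), the beta subunit of the channel, had 721.8, 984.5, 824.7 and 713.7 normalised counts in young livers, 640.4, 518.0, 546.6 and 555.2 in middle-aged livers, and 826.9, 533.6, 417.7 and 566.7 in aged livers. It did not pass, with log2 fold changes of -0.52 (SE 0.18, adjusted p = 0.0605) and -0.47 (SE 0.18, adjusted p = 0.14). Sec61a1, the pore itself, and the accessory factors Sec62 and Sec63 had log2 fold changes between -0.19 and 0.09 in both comparisons with young livers.

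Among the oligosaccharyltransferase subunits, Ostc and Dad1 passed in middle-aged against young livers and Ostc alone in aged against young livers. Ostc (ENSMUSG00000041084, chr3:130695912-130709444), a subunit of the form of the enzyme that sits at the translocon, had 606.1, 722.1, 669.5 and 588.7 normalised counts in young livers, 432.9, 393.2, 392.9 and 376.8 in middle-aged livers, and 548.0, 477.8, 446.6 and 427.3 in aged livers. No older liver reached the lowest young one. Its log2 fold changes were -0.69 at 12 months (SE 0.11, DESeq2 adjusted p = 5.27e-08) and -0.44 at 18 months (SE 0.11, adjusted p = 0.00245). Dad1 (ENSMUSG00000022174, chr14:54235479-54254104), a small membrane subunit, had 720.7, 974.3, 695.5 and 669.7 normalised counts in young livers, 633.5, 545.9, 560.7 and 529.2 in middle-aged livers, and 716.6, 535.6, 498.1 and 571.2 in aged livers. Young and middle-aged livers did not overlap, and aged replicate 1 was within the young range. Dad1 fell by 0.43 on the log2 scale at 12 months (SE 0.15, DESeq2 adjusted p = 0.0487). The catalytic subunits Stt3a and Stt3b had log2 fold changes of -0.13 and 0.02 at 12 months, with adjusted p of 0.518 and 0.96.

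Of the 5 signal peptidase subunits, Spcs1 and Sec11a passed in middle-aged against young livers. Spcs1 (ENSMUSG00000021917, chr14:30999826-31001672), an accessory subunit, had 485.1, 634.2, 442.0 and 528.2 normalised counts in young livers, 364.4, 396.8, 407.9 and 418.9 in middle-aged livers, and 436.6, 350.6, 363.5 and 417.5 in aged livers. The lowest young liver was only slightly above the highest aged one. The log2 fold changes were -0.39 (SE 0.12, DESeq2 adjusted p = 0.0308) and -0.41 (SE 0.12, adjusted p = 0.0319). Spcs1 shares 223 bases with Glt8d1 on the opposite strand. Sec11a (ENSMUSG00000025724, chr7:80904889-80947780), a catalytic subunit, had 445.8, 463.6, 517.8 and 431.5 normalised counts in young livers, 394.2, 368.1, 381.5 and 310.7 in middle-aged livers, and 445.6, 442.1, 373.2 and 396.0 in aged livers. Middle-aged livers stood below all young livers and aged livers overlapped both groups, with a log2 fold change of -0.35 at 12 months (SE 0.11, DESeq2 adjusted p = 0.0273).

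In the fits of all 12 livers, neither a gene of ER-associated degradation nor Xbp1 passed in DESeq2 or edgeR in any pair of ages. Unadjusted DESeq2 p-values under 0.05 were found for 4 of the 8 in middle-aged and 1 in aged against young livers. Syvn1, the ubiquitin ligase Hrd1, had 549.8, 732.3, 1470 and 1031 normalised counts in young livers, 670.2, 482.1, 326.7 and 424.9 in middle-aged livers, and 739.6, 1572, 673.8 and 529.2 in aged livers. Herpud1, which helps to assemble that ligase, had 2533, 3921, 4542 and 4813 in young livers, 2588, 2822, 2026 and 2042 in middle-aged livers, and 2984, 5481, 2103 and 2009 in aged livers. In both genes the groups overlapped, and aged replicate 2 was the highest of all livers. Their log2 fold changes at 12 months were -0.99 (SE 0.41, adjusted p = 0.13) for Syvn1 and -0.74 (SE 0.35, adjusted p = 0.193) for Herpud1. Xbp1, the transcription factor of the unfolded protein response, had 3474, 3045, 2989 and 2203 normalised counts in young livers, 2992, 1461, 2103 and 2320 in middle-aged livers, and 2136, 2299, 1604 and 1931 in aged livers. Its log2 fold change was -0.56 at 18 months (SE 0.20, adjusted p = 0.0912), and it passed in 3 of the 12 fits with 1 library left out. Splicing of Xbp1, which makes the active form, cannot be read from counts per gene.

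**Figure D3:**
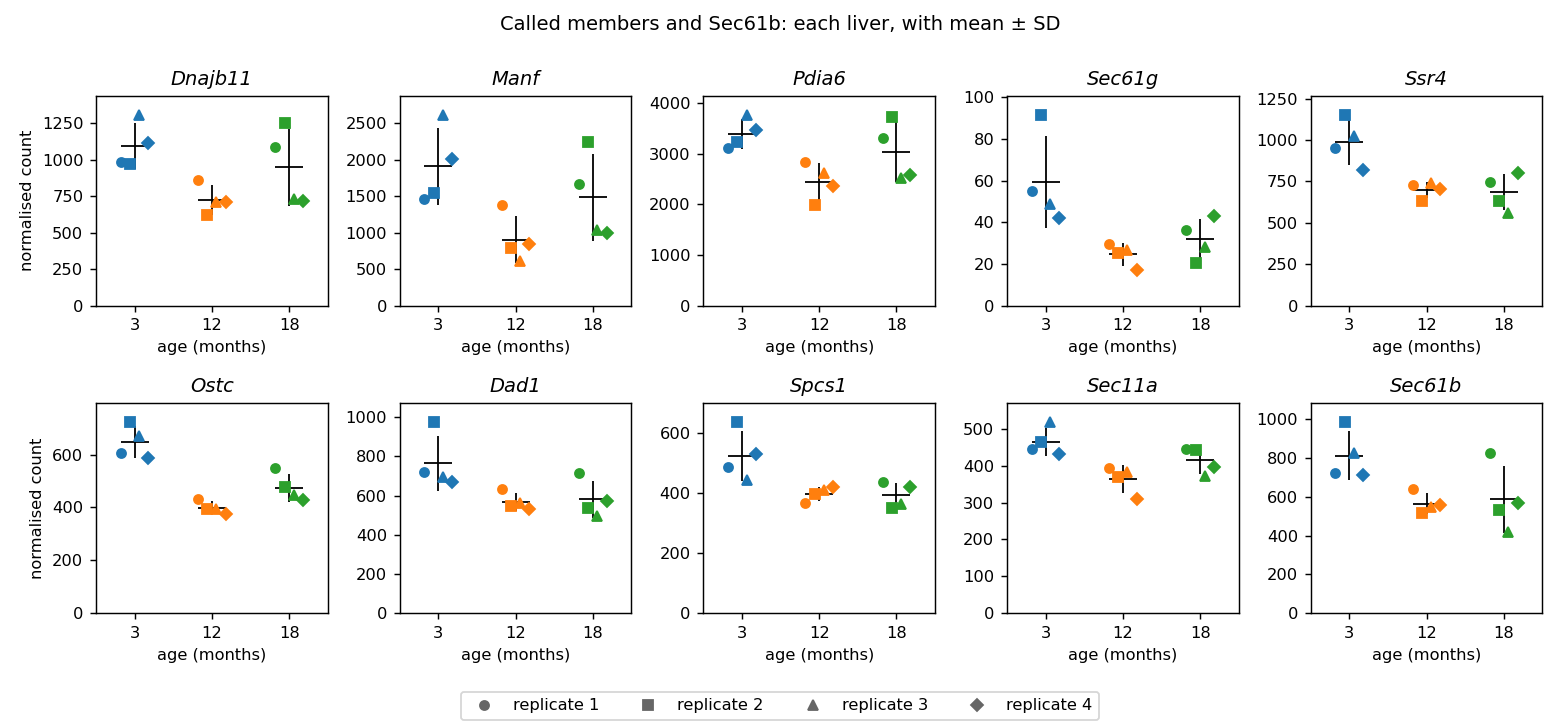
Normalised counts (vertical axes, from 0) of the 9 called members and Sec61b at 3, 12 and 18 months, with 1 symbol per liver (shape gives the replicate number) and the mean ± SD of 4 livers in black. Ostc and Ssr4 lie below all young livers at both later ages, while Dnajb11, Manf and Pdia6 have 2 high and 2 low aged livers.

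Which members passed changed with the libraries in the fit. With 1 library left out at a time, and so with fewer samples, between 1 and 14 members were called in middle-aged against young livers, and Ostc was the only one called in all 12 fits. Ostc alone remained without middle-aged replicate 2. Ostc and Dnajb11 were called without young replicate 2, Ostc and Ssr4 without middle-aged replicate 4, and Sec61g, Ostc and Spcs1 without young replicate 3. The number was 4 without middle-aged replicate 3, 6 without young replicate 4, 8 without aged replicate 4, 10 without middle-aged replicate 1, 12 without young replicate 1, 13 without aged replicate 1 or 3 and 14 without aged replicate 2. The largest adjusted p of the other 8 called members over these fits was 0.0672 for Ssr4, 0.0722 for Sec61g, 0.128 for Pdia6, 0.138 for Dnajb11, 0.169 for Sec11a, 0.173 for Spcs1, 0.191 for Manf and 0.237 for Dad1, and all had log2 fold changes below 0 in each of them. The fold changes themselves moved less. Over the 12 fits that of Ostc ran from -0.74 to -0.64, that of Pdia6 from -0.55 to -0.38, that of Dnajb11 from -0.69 to -0.50, that of Ssr4 from -0.58 to -0.41 and that of Dad1 from -0.49 to -0.29. Without the 3 libraries that stood apart (young replicates 2 and 3 and middle-aged replicate 1), Ostc and Manf were called, beside 0.644% of all genes tested. In edgeR's fit of all livers only Sec61g and Ostc were called in middle-aged against young livers. In aged against young livers Ostc was called in all 12 fits, Ssr4 in all but the fit without young replicate 2 (adjusted p = 0.0516) and Spcs1 in 5, with an adjusted p of up to 0.171. There edgeR called Ostc alone, so that Ssr4 and Spcs1 were lost. Without the 3 libraries that stood apart no member was called in that comparison by DESeq2, and 4 had an unadjusted p under 0.05.

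Markers of other cell types were measured beside these differences. The summed level of 8 plasma cell and B cell markers, cells that are rich in ER, was between 28.6 and 103 CPM in young livers, 52.8 and 399 in middle-aged livers and 79.9 and 184 in aged livers, and 2 of the 8 passed in middle-aged against young livers. Of 8 markers of pancreatic acinar cells, which are likewise rich in ER, 7 had counts and Try4 was at 0. Their sum was 48.7 to 64.6, 45.5 to 58.8 and 29.6 to 85.6 CPM in young, middle-aged and aged livers. The sum of 6 erythroid markers was 2422 to 7880.0 CPM in young, 1389 to 5520.0 in middle-aged and 1031 to 2261 in aged livers, all aged livers lying below all young ones, and 2 of the 6 passed in aged against young livers. The sum of 8 T cell and NK cell markers was 4.55 to 8.44, 3.66 to 5.67 and 2.46 to 3.56 CPM at the 3 ages, and again no aged liver reached a young one, although no marker passed in DESeq2. For 8 neutrophil markers it was at most 3.46 CPM in middle-aged livers and above that in every young liver, with 30.0 in young replicate 2. Sums for markers of Kupffer cells, sinusoidal endothelial cells, stellate cells and cholangiocytes overlapped between all ages. By DESeq2, 1 Kupffer cell marker and 1 cholangiocyte marker passed in aged against young livers. Between middle-aged and aged livers 1 cholangiocyte marker passed. The part of all these cells in the results was not tested.

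Aged and middle-aged livers were compared to ask what differs between 12 and 18 months. No member was called by DESeq2, against 1.14% of all 10236 genes tested, and edgeR called none either. Unadjusted p-values were under 0.05 for 12 of the 43 members tested by DESeq2 and for 13 of 44 by edgeR, all with higher levels in aged livers. The median log2 fold change was 0.19 over the members and 0.0050 over all genes tested. Dnajb9, Pdia3 and P4hb were higher in every aged liver than in every middle-aged one, as were 3.26% of all genes tested. Dnajb9, a J-domain cochaperone, had 620.6, 579.1, 288.7 and 411.9 normalised counts in middle-aged and 708.5, 1387, 912.4 and 819.7 in aged livers, a difference of 1.01 on the log2 scale (SE 0.38, DESeq2 adjusted p = 0.23). For P4hb the log2 fold change was 0.26 (SE 0.08, adjusted p = 0.0943).

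Roles differed in how far livers of one age lay apart. The standard deviation between livers of one age, on a log2 scale and pooled over the 3 ages, had a median of 0.49 for the 9 chaperones and 0.31 for ER-associated degradation and Xbp1. It was 0.19 for the lectin chaperones and isomerases and for the translocon, 0.16 for signal peptidase and 0.13 for oligosaccharyltransferase. Over the 8888 genes that averaged 50 or more normalised counts the median was also 0.19. Creld2, Sdf2l1, Syvn1, Dnajb9, Hyou1, Manf, Herpud1 and Hspa5 had values between 0.46 and 0.70 and exceeded at least 94.8% of those genes. Creld2, for example, varied 6.04-fold over the 12 livers and Rpn2, a subunit of oligosaccharyltransferase, 1.25-fold. The 11 members whose windows, such as those of Hspa5, Creld2, Syvn1 and Herpud1 printed above, held ERSE or ERSE-II had a median spread of 0.28 (range 0.16 to 0.95), and the 25 with a window that held neither had 0.18 (range 0.08 to 0.60). The ranges overlapped, since Dnajb9 and Sdf2l1 varied widely without either motif and Canx and Dnajc3 varied little with ERSE. The value of 0.95 was that of Derl3, which had few counts in every liver. Members with a motif were all chaperones, lectin chaperones, isomerases or degradation genes, so the motif was not separated from the role. Without the 3 libraries that stood apart the median was 0.45 for the chaperones, 0.30 for degradation and Xbp1, 0.13 to 0.20 for the other roles, 0.30 with a motif and 0.17 without, beside 0.18 over all genes.

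**Figure D4:**
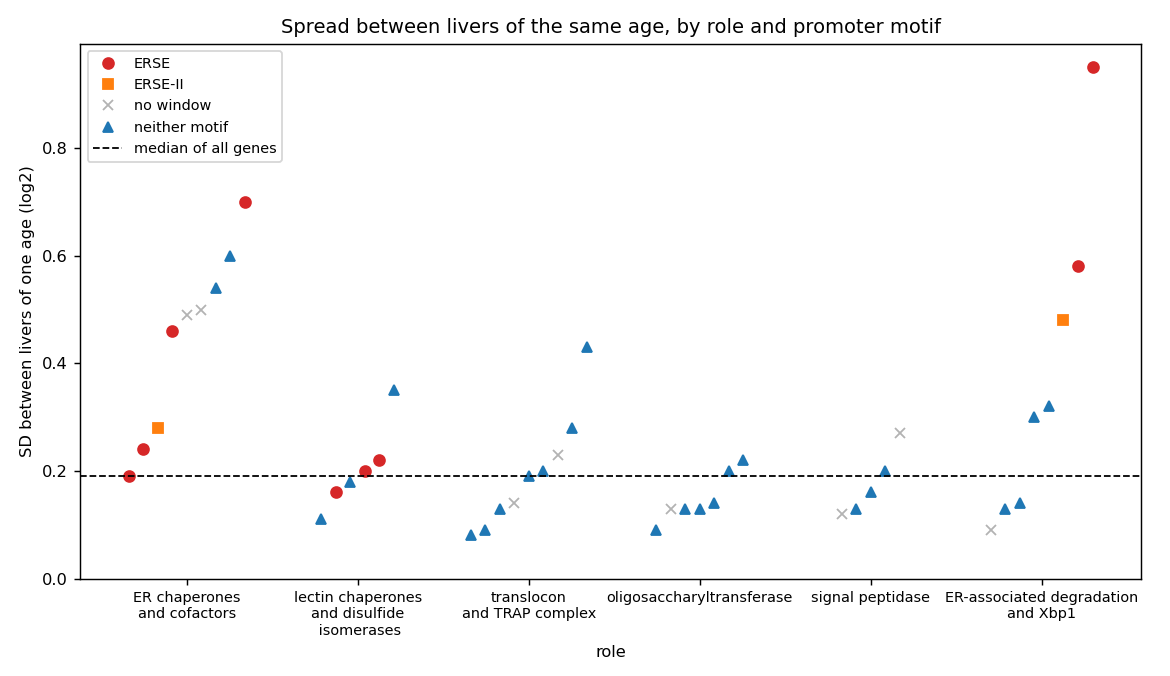
Standard deviation between livers of one age on a log2 scale (vertical axis) for each member, by role (horizontal axis) and by the motif in its promoter window (colour and shape), with the median of all genes dashed at 0.19. Most chaperones and 5 of the 8 genes of degradation and Xbp1 lie above the line, and most oligosaccharyltransferase and signal peptidase subunits lie near or under it.

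In many of these genes aged replicates 1 and 2 lay above aged replicates 3 and 4, which was noticed in the data. Over the 9 chaperones the young livers split the other way. Their median deviation from the gene's mean over all livers, on a log2 scale, was 0.06, -0.04, 0.87 and 0.42 in young replicates 1 to 4. In aged replicates 1 to 4 it was 0.22, 0.93, -0.24 and -0.32. A difference between the sets in aged against young livers thus draws on both ages. The difference between aged and young livers was also taken within replicates 1 and 2 and within replicates 3 and 4, the sets told apart by their spike-ins, with 2 livers on either side. Within replicates 1 and 2, Pdia4 and Dnajb9 rose, by 0.91 and 0.98 on the log2 scale (DESeq2 adjusted p = 0.0142 and 0.0357), while 0.605% of all genes tested were called higher. Pdia4 had 1754 and 1597 normalised counts in these young livers and 2285 and 3978 in these aged livers. Dnajb9 had 467.0 and 598.6 in the young and 708.5 and 1387 in the aged livers. In both genes aged replicate 2 was the highest. Within replicates 3 and 4, 13 of 43 members fell, while 2.31% of all genes tested were called lower. They were Hspa5, Hsp90b1, Dnajb11, Hyou1, Sdf2l1, Manf, Creld2, Calr, Pdia6, Sec61b, Herpud1, Syvn1 and Xbp1. Young replicate 3, with all 44 members above their medians, is in this set. Calls within either set come from the livers in which the split was noticed, so they are not independent support for it. All 9 chaperones had log2 fold changes above 0 in the first set and below 0 in the second, with or without the 3 libraries that stood apart. Without these libraries 1 young liver remained in each set, so only effect sizes are given for aged against young livers within the sets. The members' median log2 fold change was then 0.13 within replicates 1 and 2 and -0.26 within replicates 3 and 4. With the set as a covariate in the fit of all livers, DESeq2 called 11 members in middle-aged against young livers, the 9 named above with Sec61b and Spcs2, and the 3 named above in aged against young livers.

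The difference between the sets was tested as an interaction of age and set. This was done after the split had been noticed in the same livers, so the p-values are not independent support for it. DESeq2 called 9 of 43 members, all lower in replicates 3 and 4, against 0.732% of all 10799 genes tested. The difference in the log2 fold change of aged against young livers was -2.46 for Creld2 (SE 0.50, adjusted p = 0.000457), -1.91 for Syvn1 (SE 0.43, adjusted p = 0.00232) and -1.52 for Hspa5 (SE 0.31, adjusted p = 0.000457). The others were Sdf2l1, Hyou1, Herpud1, Manf, Pdia4 and Dnajb11, with differences from -1.75 to -1.0. edgeR's quasi-likelihood test called none of 44 members for the same interaction, with a smallest adjusted p of 0.113, and 0.190% of all genes tested. In edgeR 17 members had an unadjusted p under 0.05, all of them lower in replicates 3 and 4. With 1 library left out, DESeq2 called between 2 and 14 members. Only Hspa5 and Herpud1 passed without young replicate 3, 5 members without young replicate 1 or 2 or aged replicate 4, and 14 without aged replicate 1. Without the 3 libraries that stood apart it called Hspa5, Manf and Herpud1, against 0.713% of all genes tested. That fit held 1 young liver in each set, and leaving out 1 young or aged library left 1 liver of that age in its set. Spread between livers of that age and set could not be measured there, so no conclusion is drawn from these calls. Of the subunits that fell with age in the fit of all livers, Ssr4, Ostc and Spcs1 had differences between sets of 0.17, -0.15 and 0.19 (SE 0.28, 0.23 and 0.28), and their log2 fold changes of aged against young livers were below 0 in both sets.

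In middle-aged against young livers the sets differed for Hspa5, by -1.30 (SE 0.31, DESeq2 adjusted p = 0.0112), and for Dnajb9, by -1.85 (SE 0.40, adjusted p = 0.00242), against 0.423% of all genes tested. Within replicates 3 and 4, 15 members fell, among them 8 of the 9 chaperones, while 1.95% of all genes tested were called lower. Within replicates 1 and 2 DESeq2 called no member, 7 had an unadjusted p under 0.05, and 38 of 44 had log2 fold changes below 0. Without the 3 libraries that stood apart Hspa5, Dnajb9, Hyou1, Manf, Creld2, Herpud1 and Syvn1 fell within replicates 3 and 4, against 0.688% of all genes tested, and no member was called within replicates 1 and 2, where 3 had an unadjusted p under 0.05. Young replicate 3 belongs to replicates 3 and 4, and young replicate 2 and middle-aged replicate 1 belong to replicates 1 and 2. Without these libraries, young replicate 4 was the only young liver in replicates 3 and 4. Only young replicate 1 and middle-aged replicate 2 were then compared within replicates 1 and 2. Spread between young livers of a set could not be measured there, so no conclusion is drawn from the calls without these libraries.

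**Figure D5:**
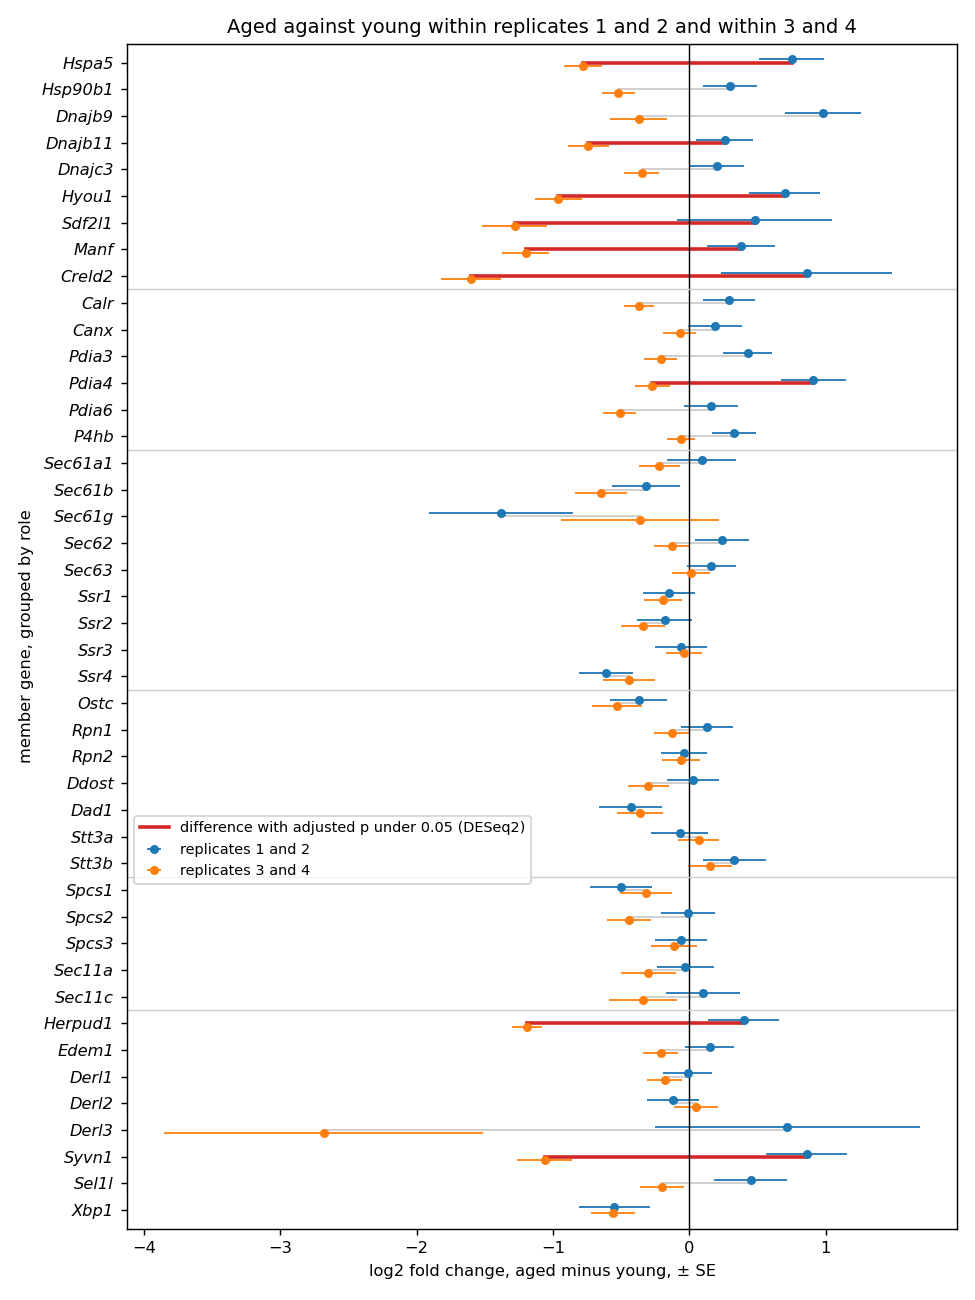
Log2 fold change of aged against young livers with its standard error (horizontal axis) within replicates 1 and 2 (blue) and within replicates 3 and 4 (orange) for each member (vertical axis, grouped by role), with a red line where DESeq2 called the difference between the sets. The 9 chaperones lie right of 0 in blue and left of 0 in orange, whereas Ssr4, Ostc, Dad1, Spcs1 and Xbp1 lie left of 0 in both.

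Other genes of the ER were examined through 6 lists of 105 genes in all. In middle-aged against young livers 12 of 103 tested passed (11.7%, beside 6.41% of all genes tested), with a median log2 fold change of -0.11. Of these 12, 11 were lower, and 2.90% of all genes tested were called lower. In aged against young livers 5 of 105 were called (4.76%, beside 3.58% of all genes tested). All 5 fell, and 1.71% of all genes tested were called lower. In aged against middle-aged livers 1 of 100 rose (1%, beside 1.14% of all genes called in either direction), a share near that over all genes. Without the 3 libraries that stood apart DESeq2 called Sec23b alone in middle-aged against young livers and none in the other comparisons, with an unadjusted p under 0.05 for 8 genes in that comparison, 5 in aged against young livers and 10 between middle-aged and aged livers. The 12, 5 and 1 fold changes called with every library all kept their sign. The genes named next are those called with every library.

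Among 22 other oxidoreductases and folding factors, Serp1, Selenof, Erp29, Selenos and Txndc11 fell at 12 months and Serp1, Selenof and Fkbp11 at 18 months. Serp1, which binds the Sec61 complex, had 3167 ± 250.4 normalised counts at 3 months, 2390.2 ± 167 at 12 months and 2546 ± 118 at 18 months (SD, n = 4), with log2 fold changes of -0.41 (SE 0.08, DESeq2 adjusted p = 5.92e-05) and -0.31 (SE 0.08, adjusted p = 0.00485). Fkbp11, a prolyl isomerase of the secretory pathway, fell by 1.34 on the log2 scale at 18 months (SE 0.39, DESeq2 adjusted p = 0.0259), from 147 ± 30.8 to 58.3 ± 43.7 normalised counts (SD, n = 4).

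Of 16 genes of the signal recognition particle and other targeting factors, Srp19, a protein of the particle, and Srprb, a subunit of its receptor, fell at 12 months, by 0.70 (SE 0.15, DESeq2 adjusted p = 0.000362) and 0.64 (SE 0.15, adjusted p = 0.00142) on the log2 scale. Srp19 also fell at 18 months, by 0.50 (SE 0.15, adjusted p = 0.026). Of 13 genes of the COPII coat, which buds vesicles from the ER, Sec13 and Sec23b fell at 12 months and Sec13 at 18 months. Of 15 other degradation factors Ube2g2, a ubiquitin-conjugating enzyme, fell at 12 months by 0.68 (SE 0.14, DESeq2 adjusted p = 0.000284).

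Of 24 genes of N-glycan precursor synthesis and trimming, Alg12, a mannosyltransferase, fell at 12 months by 0.96 (SE 0.30, DESeq2 adjusted p = 0.0292). Mcfd2, which helps cargo to leave the ER, was 0.20 higher on the log2 scale in aged than in middle-aged livers (SE 0.06, adjusted p = 0.0484). The sensors of the unfolded protein response and the genes of its Atf4 arm, 15 in all, gave 1 call. Mbtps1, the protease that activates Atf6, rose by 0.26 at 12 months (SE 0.08, DESeq2 adjusted p = 0.0368).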

How the data were processed

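Total RNA of 12 mouse livers was sequenced, and groups and replicate numbers were taken from the sample titles. The deposited values are raw counts per gene, which per the labels the authors made from reads aligned to mm10 (GRCm38), and the submitters' processing notes name STAR 2.5.2b, SAMtools 1.9, featureCounts, R 3.6.3, edgeR 3.28.1 and DESeq2 1.26.0. The methods of the study describe stranded RNA libraries read from one end, for young and old livers only. The strand setting of the counting was not given in the sources used here. The study also drew on a public atlas for its RNA-seq of 3 ages, so the preparation of these 12 libraries is uncertain. Counts for 92 spike-ins were left out of library sizes and tests.

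Symbols and positions came from GENCODE M21 (53360 of 53465 identifiers matched) and promoter windows from RefSeq. Exonic length is the union of annotated exons. DESeq2 1.42.0 in R 4.3.3 was fitted to all 12 libraries with age as the only term, after the study's choice of DESeq2, with Wald tests for pairs of ages, a likelihood ratio test for 3 ages, independent filtering at 0.1, Benjamini-Hochberg adjustment over all genes tested and a threshold of 0.05. Normalised counts are counts divided by DESeq2 size factors. Alternatives were edgeR 4.0.16, TMM factors, a minimum of 10 counts in 4 libraries, no independent filtering, only the 2 ages compared, a replicate block, the spike-in set as covariate or as strata, leaving out each library, and, added later, length and GC offsets and fits without the 3 libraries that stood apart. The 44 members and all lists were chosen with earlier results of these data known, and no test was run over a list. Values in every library are given for the 9 called members and for Sec61b, which filled the number to 10 by its likelihood ratio p; Hspa5, Creld2, Syvn1, Herpud1, Xbp1, Dnajb9 and the printed promoters were singled out after their values were seen. Similar transcripts were sought with blastn 2.17.0 (at least 95% identity over 100 bases). Replicates of every age differed by more than sampling noise, with a smallest chi-square of 11.2 per gene. The scripts were tested on simulated data.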

Additional observations from a re-analysis of the deposited data

Results flagged for a closer look

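Of 132 groups of 4 livers (44 members at 3 ages), 8 held a liver whose gap to its nearest neighbour exceeded Dixon's 95% critical value as a share of the group's range, and 6.60 would be expected by chance at 1 in 20. Normalised counts of these livers were 348.5 for Creld2 in middle-aged replicate 1, 1376 for Rpn2 in middle-aged replicate 3, 959.0 for Ssr2 and 974.3 for Dad1 in young replicate 2, and 967.1 for Creld2, 3978 for Pdia4, 1221 for Sec61a1 and 1060 for Ssr1 in aged replicate 2. In 4 of the 8 the liver was aged replicate 2.

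In 9 members the log2 fold change of aged against young livers differed between replicates 3 and 4 and replicates 1 and 2 by DESeq2's interaction test, by -1.52 for Hspa5, -1.0 for Dnajb11, -1.66 for Hyou1, -1.75 for Sdf2l1, -1.57 for Manf, -2.46 for Creld2, -1.17 for Pdia4, -1.58 for Herpud1 and -1.91 for Syvn1. For middle-aged against young livers it differed by -1.30 for Hspa5 and -1.85 for Dnajb9. edgeR called none of the 9, with a smallest adjusted p of 0.113 over the members. The split between the sets had first been noticed in these same livers.

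Spike-in transcripts, which enter no comparison of the members, took at least 1.59% of all counts in every library. The share was 3.5% to 10.63% in young and 1.59% to 2.73% in middle-aged livers, which did not overlap.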

How the results depend on the processing

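No fold change of a member called in the fit of all livers changed direction under any alternative that was run. Members called only within a set could do so. In aged against young livers Dnajb9 and Pdia4 rose by 0.98 and 0.91 within replicates 1 and 2. Within replicates 3 and 4 their log2 fold changes were -0.37 and -0.27. For Hspa5, called lower within replicates 3 and 4, they were 0.75 in the first set and -0.78 in the second. The fits without the 3 libraries that stood apart, the offsets for exonic length and GC content, and the test of the difference between sets with its alternatives were chosen after seeing the data. Fits within 2 replicates or without libraries hold fewer samples. For the other changes the cause was not tested. Without the 3 libraries, the difference between sets rests on 1 young liver in each set, and no conclusion is drawn from its calls. With the length and GC offsets 9 members were called in middle-aged against young livers, 7 of them among the 9 of the fit without offsets: Dad1 and Spcs1 were lost and Sec61b and Ssr1 gained. In aged against young livers Spcs1 was lost and Sec61b gained.

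In middle-aged against young livers, where 9 members and 727 genes were called, edgeR called 2 (280 genes), DESeq2 without independent filtering 3 (443), with only these ages 19 (1166), within replicates 1 and 2 0 (251), within replicates 3 and 4 15 (305), and without the 3 libraries 2 (74). Leaving out single libraries gave 1 to 14 members (345 to 1095 genes).

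In aged against young livers, with 3 members and 484 genes, edgeR called 1 (172), the fit within replicates 3 and 4 called 13 members, and the fit without the 3 libraries 0 (93). Genes numbered 321 without independent filtering, 290 with only these ages and 137 within replicates 1 and 2. Leaving out single libraries gave 1 to 6 members (237 to 1291 genes).

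In aged against middle-aged livers, with 0 members and 117 genes, 1 member was called with only these ages and without the 3 libraries, and 3 members (307 genes) within replicates 3 and 4. Genes numbered 13 in edgeR, 62 without independent filtering and 34 within replicates 1 and 2. Leaving out single libraries gave 0 to 1 members (45 to 198 genes).

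Over 3 ages, with 4 members and 865 genes, edgeR called 1 (234), the fit within replicates 3 and 4 16 members, that within replicates 1 and 2 270 genes, and that without the 3 libraries 2 members (180 genes). Leaving out single libraries gave 2 to 11 members (496 to 1637 genes). For the difference between sets, with 9 members and 79 genes, edgeR called 0 (23), the fit without the 3 libraries 3 members, and leaving out single libraries gave 2 to 14 members (49 to 126 genes).

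The members' median log2 fold change of aged against young livers was -0.09, and it was 0.15 within replicates 1 and 2 and -0.34 within replicates 3 and 4. For aged against middle-aged livers it was 0.19, and 0.03 within replicates 3 and 4. Leaving out single libraries gave -0.20 to -0.03, and 0.10 to 0.25; for middle-aged against young livers it gave -0.35 to -0.24.

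Same-numbered livers are different animals, and the correlations of their deviations from the group means ran from -0.30 to 0.16. Numbers 1 and 2 share one spike-in set across ages and 3 and 4 the other, but nothing in the labels ties single numbers. With the set as covariate DESeq2 called 11 members in middle-aged against young, 3 in aged against young and 0 in aged against middle-aged livers, and 6 over 3 ages. Blocking on the replicate number, DESeq2 called 3 members (385 genes) in middle-aged against young, 2 members (655 genes, 180 higher and 475 lower, against 253 and 231 without the block) in aged against young and 0 members (426 genes) in aged against middle-aged livers, and 2 members (451 genes) over 3 ages.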
